A study of Mus musculus with 4 samples.

Results

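The cytosolic ribosomal protein genes were compared between WT and *Phf2* KO MEFs, the primary fibroblasts grown from mouse embryos. Members were the gene symbols made of Rpl or Rps and a number, with the few letter suffixes such symbols carry, plus *Rpsa*, *Rplp0*, *Rplp1*, *Rplp2* and *Fau*. Pseudogenes and the S6 kinase genes were left out. The rule gave 85 genes of the 24391 symbols in the count table. The embryos were taken at mid-gestation, and the cells were held in quiescence. All 4 libraries, 2 WT and 2 *Phf2* KO, carried *Phf2* flox/flox and ERCre/+, a tamoxifen-dependent Cre recombinase expressed from the *Rosa26* locus. The labels give tamoxifen for the *Phf2* KO libraries alone, and the methods give 0.5 µM 4-hydroxytamoxifen (4-OHT) for 7 days. Loss of *Phf2*, active Cre and 4-OHT itself cannot be told apart in these libraries. The labels number the libraries of each group 1 and 2 and do not say whether a number marks 1 embryo or culture, so the spread given here may be partly technical.

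Each ribosome joins a small subunit, which reads the mRNA, to a large subunit, which forms the peptide bond and releases the chain through its exit tunnel. Most of the proteins are needed in 1 copy per ribosome, and growing cells spend a large part of their transcription on them. Their mRNAs are short, begin with a pyrimidine tract that puts their translation under control of mTOR, and have left many processed pseudogenes in mammalian genomes. A processed pseudogene is an intron-free copy of an mRNA, so a short read from the mRNA may match both.

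The libraries held between 21094743 and 26094268 counts. *Phf2*, which encodes a JmjC-domain protein that binds methylated histone H3, had 3244 and 3680 counts in WT against 1454 and 2158 counts in *Phf2* KO, a mean level in *Phf2* KO of 57.9% of WT. Its log2 difference was -0.79 ± 0.14 (SE, adjusted p = 0.999 by edgeR's quasi-likelihood test). Where the counted reads lay relative to the deleted exons is not known here. All 15 fibroblast markers were measured, with summed levels of 85542 and 89421 CPM (counts scaled to library size) in WT and 76523 and 76044 CPM in *Phf2* KO. The macrophage markers, 15 of 15 tested, summed to 4071 and 4499 CPM in replicates 1 and to 875 and 1400 CPM in replicates 2 of WT and *Phf2* KO. Of 10 markers each, 6 endothelial, 8 epithelial, 5 muscle and 3 neural ones stayed under 10 counts in every library, *Tie1* and *Cldn5* at 0 throughout. Others were counted, among them *Eng* (444 to 632 counts), *Kdr* (135 to 441), *Nes* (893 to 1073) and *Des* (1279 and 609 in WT against 664 and 338). The muscle markers summed to 58.3 and 31.8 CPM in WT against 38.3 and 23.6 CPM in *Phf2* KO, and the neural ones to between 82.5 and 96.2 CPM in the 4 libraries. Replicates 1 expressed *Xist* (10042 and 8336 counts) and replicates 2 did not (3 and 12 counts), so replicate number went with sex in both groups. Whether fibroblast state, other cell types or sex took part in the values below was not tested.

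How much of each member's sequence is found nowhere else in the genome was examined first, because the reads were single and 50 nt long. For 84 members an mRNA was available on NCBIM37 (mm9), the exception being *Rpl41*. Every run of 50 bases in the mRNA was searched for on both strands of that genome, and a run was called unique when no second place held the same 50 bases. No member shared exon bases on its own strand with another annotated gene. Of the coding runs of the 79 members that were tested and had an mRNA, a median of 9.46% were unique, against 98.5% over 12853 tested genes with an mRNA and 98.2% over 77 mitochondrial ribosomal protein genes. In 27 of the 79 members, or 34.2%, no coding run was unique, whereas this held for 0.669% of all tested genes.

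A few of these runs were picked as the extremes of their genes. All are written 5′ to 3′ on the mRNA strand, with a start codon in capitals where the run begins with one. *Rps12* and *Rpl23a*, of the small and the large subunit, gave the runs with 22 and 19 matches in the genome, at chr10:23505030-23505079 and chr11:77995006-77995055, both on the minus strand of NCBIM37. *Rps6* encodes the substrate of the S6 kinases, and its run at chr4:86500677-86500726 on the minus strand matched 12 places. *Rpl8* and *Rplp1* gave runs with 1 match, their own locus, at chr15:76734743-76734792 on the plus strand and chr9:61762186-61762235 on the minus strand. Among coding runs within a single exon, those of *Rps12*, *Rpl23a* and *Rps6* had the most matches in their gene, and those of *Rpl8* and *Rplp1* the fewest. The fewest were 5, 3 and 2 in *Rps12*, *Rpl23a* and *Rps6*, and the most were 2 and 4 in *Rpl8* and *Rplp1*. Of all coding runs, 90.1% were unique in *Rpl8* and 36.1% in *Rplp1*.
Rps12: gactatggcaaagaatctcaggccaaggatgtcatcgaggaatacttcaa
Rpl23a: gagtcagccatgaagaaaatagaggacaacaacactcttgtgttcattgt
Rps6: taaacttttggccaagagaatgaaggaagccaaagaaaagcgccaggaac
Rpl8: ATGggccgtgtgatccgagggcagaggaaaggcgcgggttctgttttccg
Rplp1: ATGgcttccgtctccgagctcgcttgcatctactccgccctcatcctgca

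The paralog copies, members named after another ribosomal protein gene with an l after the number, were taken by symbol alone. They had a larger unique share than their partners in all cases but *Rpl22l1*, where it was 18.1% against 66.9% in *Rpl22*. Of the coding runs, 50% were unique in *Rps27l* and 82.0% in *Rps4l*, against 0% in *Rps27* and 9.42% in *Rps4x*. In *Rpl39l* the share was 100%, against 9.35% in *Rpl39*. The closest unique stretch of each copy is shown beside the same coding positions of its partner, with the bases that differ in capitals. *Rps27l* (chr9:66794671-66794720, plus strand) and *Rps27* (chr3:90017141-90017190, minus strand) differed at 8 of these 50 bases, coding positions 40 to 89.
Rps27l: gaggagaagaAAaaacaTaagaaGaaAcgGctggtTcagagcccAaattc
Rps27: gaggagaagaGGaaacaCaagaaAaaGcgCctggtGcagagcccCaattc
*Rpl39l* (chr16:10174407-10174456, plus strand) and *Rpl39* (chrX:34624033-34624082, minus strand) differed at 3 bases, coding positions 5 to 54.
Rpl39l: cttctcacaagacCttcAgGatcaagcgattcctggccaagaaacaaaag
Rpl39: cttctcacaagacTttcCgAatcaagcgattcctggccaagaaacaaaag
The *Rpl39l* stretch matched 1 place in the genome and the *Rpl39* stretch 5, and the *Rps27l* and *Rps27* stretches matched 1 and 5.

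The level of a member per length followed its share of unique coding sequence. Levels are given as the mean of 4 libraries in CPM per kb of mRNA. The 14 members with at least 50% of coding runs unique had a median of 571 CPM per kb. The 27 members with none had a median of 5.79 CPM per kb, and 26 of them lay under 100. Members with a share above 0 and under 10%, 15 in number, had a median of 34.9 CPM per kb, and the 23 members from 10% to under 50% had a median of 129 CPM per kb. Across the 79 members, which share their libraries, Spearman's rho was 0.76. Most of these proteins are needed in equal numbers in a ribosome, while the levels ran from 0.631 CPM per kb for *Rps13* to 3471 CPM per kb for *Rplp1*. These levels describe what was counted, and whether non-unique reads caused it was not tested.

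**Figure D1:**
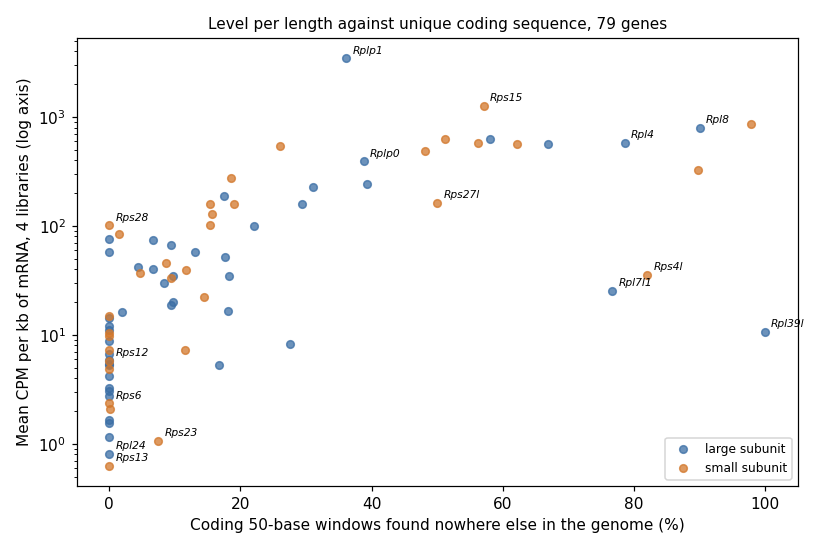
Mean level of each tested member (CPM per kb of mRNA over 4 libraries, log axis) against the share of its coding 50-base runs found nowhere else in the genome (%), 1 point a gene, coloured by subunit. Members with no unique run lie mostly under 100 CPM per kb, *Rplp1* is the highest point, and the copies *Rpl39l*, *Rpl7l1* and *Rps4l* lie low although most of their runs are unique.

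The highest members per length were *Rplp1* and *Rps15*, at 3471 ± 301 and 1268 ± 157 CPM per kb (SD, 4 libraries). *Rplp1* lay above *Rps15* in each library. The 3 lowest members tested were *Rps13*, *Rpl24* and *Rps23*, at 0.631 ± 0.161, 0.811 ± 0.115 and 1.07 ± 0.217 CPM per kb. These neighbours did not differ beyond their spread, since *Rps13* was counted only 6 to 11 times, *Rpl24* 11 to 16 times and *Rps23* 9 to 16 times per library.

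Too few counts for a test were found for 5 of the 85 members. *Rpl26* and *Rpl10l* were listed at 0 in all 4 libraries, which allows up to between 0.115 and 0.142 CPM per library, the level of 3 counts. *Rpl10l* is a testis copy of *Rpl10* and had 87.6% of coding runs unique, whereas *Rpl26* is a constitutive part of the large subunit and had 12.1%. *Rpl3l*, the muscle copy of *Rpl3*, was at 0 in 3 libraries and at 4 counts in *Phf2* KO replicate 2, with 98.6% of coding runs unique. *Rpl5*, which with *Rpl11* and 5S rRNA binds Mdm2, had 16 and 7 counts in WT against 5 in each *Phf2* KO library. *Rps29* had 12 and 9 counts in WT against 6 and 7 counts in *Phf2* KO.

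The comparison of *Phf2* KO with WT addressed whether these genes depend on the demethylase-family protein. Among the 80 members tested, 0 rose and 0 fell at an adjusted p under 0.1 by edgeR's quasi-likelihood test, where 0.00732% of all 13668 genes tested were called, and the smallest adjusted p of a member was 0.999. At an unadjusted p under 0.05, 3 members were higher (background 1.54%) and 0 were lower (background 2.67%). DESeq2 also called 0 members, where it called 64 of 16040 genes, and limma-voom called 0 of all 13668 genes. With so few calls among all genes, 0 of 80 members is near the background in each fit and is no result about this family. These fits had no replicate block. With the replicate number as a block, 10 members rose and 2 fell, where 5.77% and 5.20% of all genes did, as given in the last section. Both *Phf2* KO libraries lay above both WT libraries for 27 of the 80 members, where 15.5% of all genes did, and below both for 6 members, where 18% of all genes did. Among these were *Rpl4*, *Rpl7*, *Rpl35a*, *Rps4x* and *Rps24*. The log2 difference was above 0 in 51 of 80 members (63.75%, against 51.24% of all genes tested), with a median of 0.078 against 0.0054 over all genes. The middle 50% of members lay between -0.045 and 0.21.

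**Figure D2:**
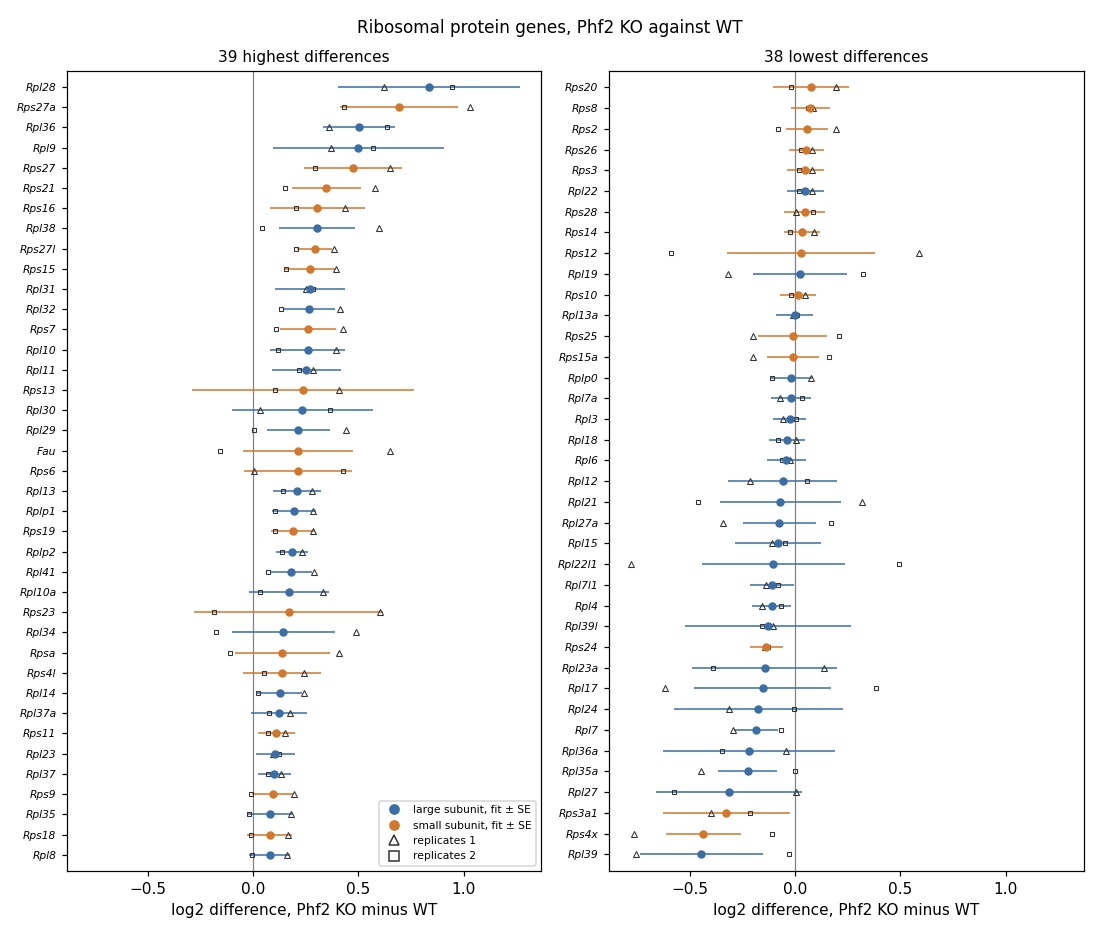
Log2 difference of 77 tested members, *Phf2* KO minus WT, ordered from the highest (left panel, top) to the lowest (right panel, bottom). Filled points with bars are the fit ± SE, open triangles and squares the differences within replicates 1 and within replicates 2; values run from 0.84 for *Rpl28* to -0.44 for *Rpl39*, and for *Rpl39* and *Rps4x* the triangle lies far below the square.

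The summed counts of the members were close between the groups. They took 1.03% and 1.06% of the counts of the WT libraries, against 1.09% and 1.10% of those of the *Phf2* KO libraries (replicates 1 and 2), a ratio of 1.05 between group means. Both *Phf2* KO libraries were above both WT libraries, although 2 libraries against 2 cannot give a two-sided exact permutation p under 0.333. For the large subunit the shares were 0.602% and 0.608% in WT against 0.630% and 0.628% in *Phf2* KO, and for the small subunit 0.426% and 0.449% against 0.464% and 0.468%. The 5 most abundant members of each library took between 42.0% and 43.0% of its ribosomal protein counts.

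The subunits were not alike in their counts. In the small subunit 27 of 33 members had a log2 difference above 0 (median 0.093), and in the large subunit 24 of 47 (median 0.025). The median within replicates 1 was 0.19 for the small and 0.079 for the large subunit, and within replicates 2 it was 0.055 and 0.024. WT replicate 1 was the lowest library for 69.7% of small and 44.68% of large subunit members. The mRNAs had a median length of 637 nt in the small and 763 nt in the large subunit. The difference between the subunits, and the part of that library and of length in it, was not tested.

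WT replicate 1 stood apart for these genes. It was the lowest of the 4 libraries for 44 of 80 members, or 55%, against 32.37% of all genes tested. The median over members of the log2 CPM, set against each gene's mean, was -0.097 in WT replicate 1 and -0.0018 in WT replicate 2, against 0.051 and 0.036 in the 2 *Phf2* KO libraries. The median genotype difference over members was 0.15 within replicates 1 and 0.031 within replicates 2, where all genes gave 0.012 and 0.0016. Without WT replicate 1 the fitted median was 0.047 in place of 0.078, and without WT replicate 2 it was 0.11.

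**Figure D3:**
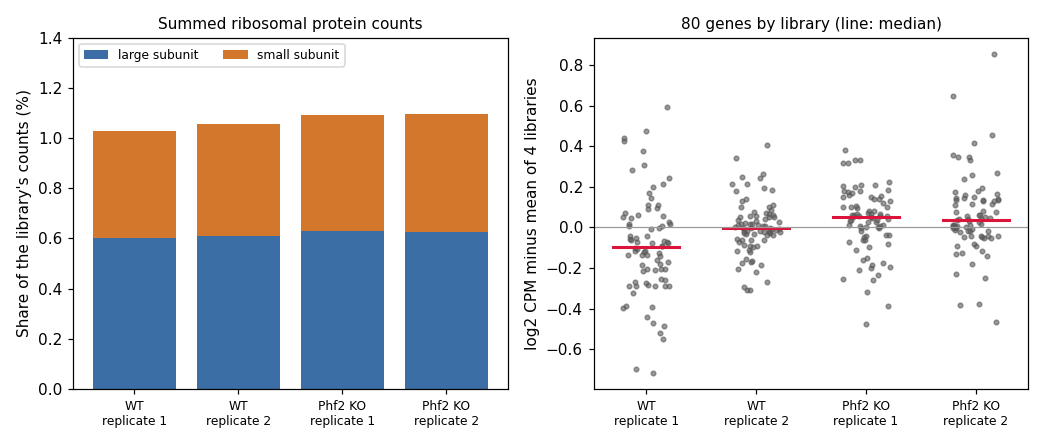
Left, summed counts of large and small subunit genes as a share of each library's counts (%, bars from 0). Right, log2 CPM of each of the 80 tested members minus its mean over the 4 libraries, 1 point a gene with the median as a line; WT replicate 1 has the lowest median, -0.097, and the widest scatter.

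The lean towards higher values went with mRNA length. Ribosomal protein mRNAs had a median length of 710 nt, and 81.0% were at most 1000 nt long, against 7.21% of all tested genes with an mRNA. Of the 64 members of at most 1000 nt, 45 (70.3%) had a log2 difference above 0, with a median of 0.097. Of the 863 other genes of at most 1000 nt, 67.0% did, with a median of 0.078. Of the 15 members over 1000 nt, 5 had a log2 difference above 0, with a median of -0.026. In 11911 other genes over 1000 nt the median was -0.0034. Among other genes the median declined in each length class, from 0.16 in 85 genes of at most 500 nt to 0.11, 0.060, 0.030, 0.015, -0.011 and finally -0.035 in 2096 genes over 5000 nt.

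The same held within replicate numbers. Other genes of at most 1000 nt had a median of 0.11 within replicates 1 and 0.053 within replicates 2, and members of at most 1000 nt had 0.18 and 0.050. WT replicate 1 was below WT replicate 2 in short genes too, with a median log2 difference of -0.063 in the other short genes and of -0.092 in short members. Spearman's rho between mRNA length and the log2 difference was -0.32 over 79 members and -0.15 over 12853 genes. For GC content of the mRNA it was 0.30 and 0.20. The part of length, GC content and RNA quality in the members' differences was not tested.

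**Figure D4:**
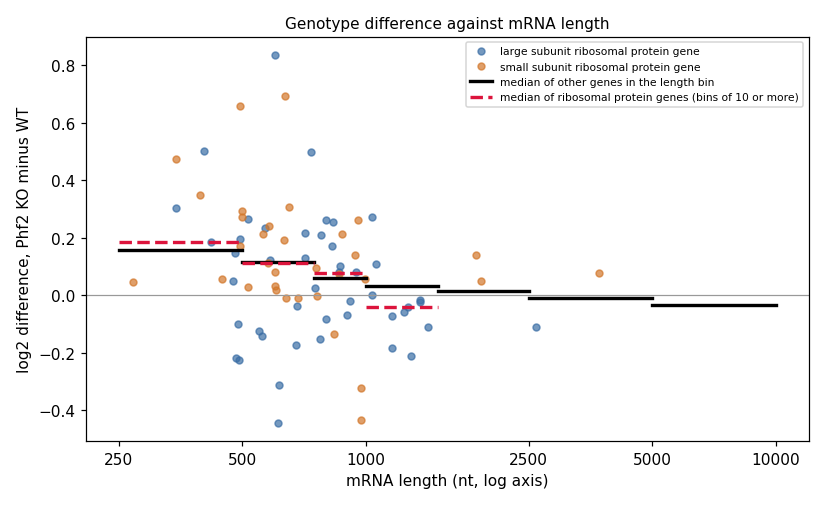
Log2 difference, *Phf2* KO minus WT, of each member against its mRNA length (nt, log axis), coloured by subunit. Solid lines are the medians of all other tested genes in 7 length classes, from 0.16 at the shortest to -0.035 at the longest, and dashed lines are the members' medians in classes of 10 members or more, which lie near the solid ones except from 1000 to 1500 nt.

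Precision differed widely between members. The SE of the log2 difference had a median of 0.26 in the 27 members with no unique coding run and of 0.095 in the 14 with at least 50% unique. In the first group 18 of 27 members had a log2 difference above 0 (median 0.21, from -0.31 to 0.84). In the second group 9 of 14 did (median 0.065, from -0.13 to 0.35). The extremes of the whole family came from members with few counts or little sequence of their own.

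Among the 5 largest positive log2 differences were those of *Rpl28*, *Rps27a*, *Rpl36* and *Rpl9*, and each of these genes had at most 6.52 mean CPM. *Rpl28*, of the large subunit, was at 1.12 and 1.70 CPM in WT and 1.74 and 3.29 CPM in *Phf2* KO. The groups did not overlap, and the log2 difference was 0.84 ± 0.43 (SE), and it was 0.30 with *Phf2* KO replicate 2 left out but 1.22 with *Phf2* KO replicate 1 left out. *Rps27a* encodes a fusion of ubiquitin with a small subunit protein. It was at 3.65 and 5.93 CPM in WT and 7.48 and 8.03 CPM in *Phf2* KO, a log2 difference of 0.69 ± 0.28. *Rps27a* was higher in both *Phf2* KO libraries, with WT replicate 1 the lowest, and the log2 difference was 0.40 without that library and 1.09 without WT replicate 2. *Rpl9*, of the large subunit, was at 1.45 and 2.24 CPM in WT and 1.88 and 3.33 CPM in *Phf2* KO, and its groups overlapped (0.50 ± 0.41). The value for *Rpl9* was 0.028 without *Phf2* KO replicate 2 and 0.24 without WT replicate 1, and 0.85 when either other library was left out.

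*Rpl36* and *Rps27l* were among the 3 members past an unadjusted p of 0.05, each with an adjusted p of 0.999. *Rpl36*, of the large subunit, was at 5.56 and 5.24 CPM in WT and 7.14 and 8.15 CPM in *Phf2* KO (0.50 ± 0.17, unadjusted p = 0.036), with 1.86% of its coding runs unique.

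*Rps27l*, the copy of *Rps27* that is known as a p53 target, had the smallest unadjusted p of all members. It was at 69.8 and 75.6 CPM in WT and 91.0 and 87.1 CPM in *Phf2* KO. Both *Phf2* KO libraries lay above both WT libraries, and the log2 difference was 0.29 ± 0.084 (unadjusted p = 0.021). Within replicates 1 it was 0.38 and within replicates 2 it was 0.20. Its partner *Rps27*, which has no unique coding run, was at 1.99 and 2.24 CPM in WT and 3.14 and 2.75 CPM in *Phf2* KO (0.47 ± 0.23).

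**Figure D5:**
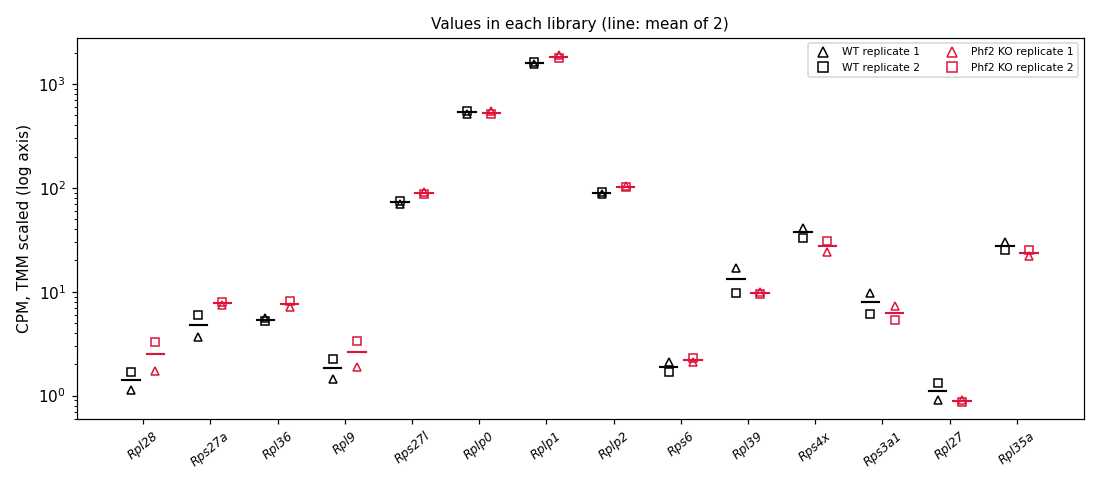
CPM (TMM scaled, log axis) of 14 members in each library, black for WT and red for *Phf2* KO, triangles for replicates 1 and squares for replicates 2, with a line at the mean of 2 libraries. From left to right are 4 of the 5 highest log2 differences, *Rps27l*, the stalk genes and *Rps6*, and the 5 lowest. The groups are apart with *Phf2* KO higher for *Rpl28*, *Rps27a*, *Rpl36*, *Rps27l*, *Rplp1*, *Rplp2* and, narrowly, *Rps6*. They are apart with *Phf2* KO lower for *Rps4x* and, narrowly, *Rpl35a*. For *Rpl39* only WT replicate 1 departs from the other 3 libraries.

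The 5 largest negative log2 differences belonged to *Rpl39*, *Rps4x*, *Rps3a1*, *Rpl27* and *Rpl35a*. *Rpl39*, which lines the exit tunnel, was at 16.9 and 9.75 CPM in WT and 10.0 and 9.57 CPM in *Phf2* KO. Only WT replicate 1 was high, so the log2 difference of -0.44 ± 0.29 became 0.019 without that library. *Rps4x*, an X-linked small subunit gene, was at 41.4 and 33.3 CPM in WT and 24.4 and 30.8 CPM in *Phf2* KO. Both *Phf2* KO libraries were below both WT libraries, with a log2 difference of -0.43 ± 0.18, of -0.76 within replicates 1 and of -0.11 within replicates 2. It was -0.26 without WT replicate 1 and -0.28 without *Phf2* KO replicate 1.

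*Rps3a1*, of the small subunit, was at 9.63 and 6.17 CPM in WT and 7.29 and 5.32 CPM in *Phf2* KO. Its groups overlapped, and its log2 difference of -0.32 ± 0.30 became 0.042 without WT replicate 1. *Rpl27* had only 22 and 34 counts in WT against 19 and 21 counts in *Phf2* KO. Its log2 difference of -0.31 ± 0.34 was -0.029 without WT replicate 2 and -0.54 without WT replicate 1. *Rpl35a*, a large subunit gene whose human counterpart is mutated in some patients with Diamond-Blackfan anaemia, was at 30.1 and 25.1 CPM in WT and 22.1 and 25.1 CPM in *Phf2* KO. Its log2 difference of -0.22 ± 0.14 was -0.077 without WT replicate 1, -0.14 without *Phf2* KO replicate 1 and -0.35 without WT replicate 2.

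The stalk of the large subunit, formed by Rplp0 with the acidic proteins Rplp1 and Rplp2, recruits translation factors. *Rplp0* was at 517 and 555 CPM in WT and 545 and 514 CPM in *Phf2* KO, with a log2 difference of -0.016 ± 0.096, and its groups overlapped. *Rplp1* was at 1558 and 1646 CPM in WT and 1899 and 1769 CPM in *Phf2* KO, a log2 difference of 0.20 ± 0.11. *Rplp2* was at 88.1 and 92.2 CPM in WT and 104 and 101 CPM in *Phf2* KO, a log2 difference of 0.19 ± 0.076. The groups did not overlap for the 2 acidic proteins. Neither passed the test, at unadjusted p-values of 0.13 and 0.063. *Rps6*, with no unique coding run, had 51 and 44 counts in WT against 44 and 55 counts in *Phf2* KO (0.21 ± 0.26, with 0.061 without WT replicate 2 and 0.39 without WT replicate 1).

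Of the members that release a second peptide, *Fau*, which fuses a ubiquitin-like protein to Rps30, was at 6.02 and 9.36 CPM in WT and 9.46 and 8.40 CPM in *Phf2* KO (0.21 ± 0.26). Its groups overlapped, with WT replicate 1 low. *Rpl11*, which binds Mdm2 when ribosome assembly fails, was at 6.89 and 6.44 CPM in WT and 8.40 and 7.49 CPM in *Phf2* KO (0.25 ± 0.16, unadjusted p = 0.19). Of 16 members whose human counterparts are linked to Diamond-Blackfan anaemia, 13 were tested. Of these, 9 had a log2 difference above 0 (69.23%, against 63.75% of all members tested), and the median was 0.055.

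For the mRNA path and head of the small subunit 7 genes were listed and 6 were tested. These were *Rps2*, *Rps3*, *Rpsa*, *Rps15*, *Rps20* and the scaffold gene *Gnb2l1*, which is not a member. All 6 had a log2 difference above 0 (median 0.066), where 81.82% of small subunit members did. WT replicate 1 was the lowest library in each, where it was the lowest in 69.7% of small subunit members. Whether the list departs from the subunit was not tested. *Rps15* was at 528 and 621 CPM in WT and 694 and 692 CPM in *Phf2* KO (0.27 ± 0.12). *Rps21*, named here after its values were seen because it has ample counts, was at 184 and 247 CPM in WT and 275 CPM in each *Phf2* KO library (0.35 ± 0.16). For *Rps15* and *Rps21* alike, WT replicate 1 was farthest from the other libraries. The exit tunnel genes *Rpl4*, *Rpl17* and *Rpl39* each had a log2 difference below 0, where 51.06% of large subunit members lay above 0. The list for this group also held *Rpl22*, which was above 0 (0.048 ± 0.087). Its protein is not counted among those lining the tunnel here. *Rpl4* was at 881 and 836 CPM in WT and 792 and 799 CPM in *Phf2* KO (-0.11 ± 0.093).

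*Rps24*, a small subunit gene also linked to Diamond-Blackfan anaemia, was at 142 and 136 CPM in WT and 129 and 125 CPM in *Phf2* KO. It was alike within replicates 1 and within replicates 2 (-0.14 and -0.13), with a log2 difference of -0.14 ± 0.078 (unadjusted p = 0.15).

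Some abundant members with mostly unique sequence, named after their values were seen, were close between the groups. Others such as *Rps15* and *Rps21*, with 57.1% and 51.2% of coding runs unique, were not. Of the 14 members with at least 50% of coding runs unique, both *Phf2* KO libraries lay above both WT libraries in 5 and below in 1, where 15.5% and 18% of all genes did. *Rpl8*, with 90.1% of coding runs unique, was at 637 and 691 CPM in WT and 714 and 689.9 CPM in *Phf2* KO, a log2 difference of 0.079 ± 0.097. *Rpl13a* stayed between 639.9 and 647 CPM in the 4 libraries, with a log2 difference that rounds to 0.00, and *Rps3* at 610 and 624 CPM against 645 and 633 CPM (0.050 ± 0.088). The smallest SE of any member's log2 difference was 0.076.

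The other paralog copies had mixed values. *Rpl22l1*, the copy of *Rpl22*, was at 9.71 and 7.01 CPM in WT and 5.65 and 9.90 CPM in *Phf2* KO, so its replicate numbers went opposite ways (-0.78 and 0.50). *Rpl39l* was at 7.63 and 4.55 CPM in WT and 7.10 and 4.08 CPM in *Phf2* KO (-0.13 ± 0.39). Its 2 values in each group were farther apart than the groups, with replicates 1 the higher. *Rpl7l1* was at 73.4 and 64.7 CPM in WT and 66.7 and 61.2 CPM in *Phf2* KO (-0.11 ± 0.10). *Rps4l* was at 27.3 and 36.8 CPM in WT and 32.3 and 38.2 CPM in *Phf2* KO (0.14 ± 0.19). Groups overlapped for each of these copies.

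Other genes of translation gave no call in the same fit. Of 19 other mRNAs of the pyrimidine-tract class and elongation factors, 0 were called and 13 had a log2 difference above 0 (median 0.035). *Tpt1*, a pyrimidine-tract mRNA, was at 323 and 350 CPM in WT and 435 and 403 CPM in *Phf2* KO (0.32 ± 0.098, unadjusted p = 0.026). Of 32 initiation factor genes tested, 15 were above 0 (median -0.0032), and of 17 genes of mTOR signalling and pyrimidine-tract regulation, 8 were (median -0.028). Of 5 chaperones dedicated to ribosomal proteins, 1 was above 0 (median -0.092). No gene of these 4 lists passed an adjusted p of 0.1 in this fit without a replicate block.

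The mitochondrial ribosomal protein genes, whose proteins serve the separate ribosome of that organelle, had a similar share above 0. Of 77 tested, 0 were called in the same fit, 50 (64.94%) had a log2 difference above 0 and the median was 0.053, with 0.090 within replicates 1 and 0.0037 within replicates 2. WT replicate 1 was the lowest library for 37 of them, or 48.05%. *Mrps24* was at 36.1 and 38.3 CPM in WT and 50.1 and 46.5 CPM in *Phf2* KO (0.38 ± 0.097, unadjusted p = 0.014). *Mrpl57* (0.33 ± 0.099) and *Mrps12* (0.29 ± 0.10) also passed an unadjusted p of 0.05. Only 5 of the 77 had under 50% of their coding runs unique, against 65 of 79 cytosolic members.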

How the data were processed

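RNA-seq of 2 WT and 2 *Phf2* KO libraries was used. The authors took single reads through Trim Galore and a bowtie2 step against ribosomal RNA, mapped the rest on mm9 (MGSCv37) using STAR in its reverse-stranded setting, and obtained counts per gene from featureCounts. How reads with several matches were treated, tool versions and the annotation are not given in the sources used here. The deposited values are raw counts. The authors' deposited comparison (log2 fold changes, standard errors and p-values from DESeq2) was not used.

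Genotype was tested in edgeR 4.0.16 under R 4.3.3 (filterByExpr, TMM, glmQLFit and glmQLFTest on genotype, Benjamini-Hochberg over 13668 genes, called at an adjusted p under 0.1). CPM are TMM scaled, and within-number differences are log2 CPM with a prior count of 0.5. Marker sums use the library total. DESeq2 1.42.0, limma 3.58.1 (voom), other scalings and filters, a replicate block and each library left out were alternatives.

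Runs of 50 bases came from GENCODE M1 transcripts, 1 a gene: the coding length of the transcript numbered 001, otherwise the longest, and then the shortest transcript with it. *Rps3a1* and *Rps4l* were matched through synonyms. Matches were exact, so near-identical copies do not count. Python 3.11.15, NumPy 2.4.6, numba, pandas 2.3.3 and Matplotlib 3.10.9 were used.

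Members and lists were chosen with earlier results of these data known. Values are given for members past an unadjusted p of 0.05, the 5 largest differences in each direction, paralog copies (an l after the number), the 3 highest and 3 lowest per length, stalk genes, *Rps6*, and list genes past an unadjusted p of 0.05. *Rpl4*, *Rpl8*, *Rpl11*, *Rpl13a*, *Rpl22*, *Rps3*, *Rps21*, *Rps24*, *Rps27* and *Fau* were added after their values were seen. Of the members, 3 are counted but not reported singly here.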

Additional observations from a re-analysis of the deposited data

How the results depend on the processing

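The call counts of 0 higher and 0 lower held with DESeq2, limma-voom, RLE size factors, library size alone, TMM factors computed without these genes, both other filters and thresholds of 0.05 and 0.01. DESeq2 called 64 genes in all, limma-voom 0 and edgeR 1 under each other scaling or filter. With so few calls among all genes, 0 of 80 members is near the background, so these zeros are no result about the members. The zeros at 0.05 and 0.01 follow from the 0 at 0.1. *Phf2* itself was not called in the main fit. The median log2 difference ranged from 0.047 to 0.11 and the ratio of summed counts from 1.04 to 1.06 with 1 library left out, and other settings moved neither by more than the spread between replicates.

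With the replicate number as a replicate block, 10 members rose and 2 fell (12.5% and 2.5% of 80, where 5.77% and 5.20% of all genes did). This fit has 1 residual degree of freedom, and no label says that a number pairs libraries. Its common dispersion was 0.0036, against 0.045 without the block. Across 11556 genes the difference between replicates in WT correlated with that in *Phf2* KO at Pearson's r = 0.85, and over 72 members at 0.10. By ranks the correlation was lower, with Spearman's rho at 0.61 and 0.040. *Rpl28*, *Rpl32*, *Rpl36*, *Rpl38*, *Rps7*, *Rps15*, *Rps21*, *Rps27a* and *Rps27l* were among those called higher under the block, and *Rpl39* and *Rps4x* lower. In the translation lists the block called 1 pyrimidine-tract or elongation gene (*Tpt1*, higher), 1 initiation factor (*Eif4e*, lower), 2 mTOR genes (*Myc* lower, *Rps6kb2* higher), 1 chaperone (*Heatr3*, lower) and 4 mitochondrial genes (*Mrps24*, *Mrpl33*, *Mrpl57* and *Mrps12*, higher). *Phf2* was called under the block (-0.80) and by DESeq2 (-0.78).

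With 1 library left out the log2 difference ranged from -0.79 to 0.019 for *Rpl39*, -0.61 to 0.042 for *Rps3a1*, -0.57 to 0.24 for *Rpl22l1*, -0.58 to 0.30 for *Rpl39l*, -0.049 to 0.37 for *Rps4l*, -0.13 to 0.58 for *Rps23*, -0.36 to 0.049 for *Rpl24*, -0.071 to 0.67 for *Rps13* and -0.059 to 0.035 for *Rplp0*. Without a turn of sign it ranged from -0.20 to -0.0047 for *Rpl7l1* and 0.17 to 0.39 for *Rps15*. The cause was not tested. In alternatives chosen after seeing the data, rho between unique coding share and level was 0.78 per kb of coding sequence and 0.57 with the share over the whole mRNA. Depth limits the members under 10 CPM, 31 of 80 tested.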
